A study of Homo sapiens with 6 samples.

Results

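The DNA damage signalling and repair genes described here are 44 genes chosen by name for their roles in checkpoint signalling, homologous recombination, the Fanconi anaemia pathway, end joining, mismatch repair and single-strand break repair. Each name matched 1 Ensembl identifier among the 63186 rows of a gene count table, and all 44 passed the filter on low counts, with 53 to 11994 counts per gene and library. The table holds 6 libraries of RBE, a human cell line grown from an intrahepatic cholangiocarcinoma, that is, a tumour of the biliary tree inside the liver. Of these, 3 libraries came from cells transfected with a control siRNA (si-Ctrl) and 3 from cells transfected with siRNA against CHAF1A (si-CHAF1A), the large subunit of the chromatin assembly factor that places histones on newly copied DNA. All 6 cultures were transfected with Lipofectamine 3000 at about 60% confluency, received new medium after 24 h and were collected at 48 h. No drug or radiation treatment is named in the labels, the knockdown is transient, and the labels do not give the number or sequences of the siRNAs. The design text calls the samples biological replicates without saying how they were made, so a p-value here reflects only how these 6 samples vary, which may be technical.

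A broken chromosome is sensed by protein complexes that recruit and switch on large kinases, which in turn signal through checkpoint kinases to halt the cell cycle. Cells then repair the break either by joining the ends directly or by copying an intact sister chromatid, the route called homologous recombination, which needs resected DNA ends and works after replication. The Fanconi pathway handles crosslinks between the strands, mismatch repair corrects copying errors, and many genes of these routes are transcribed more in dividing cells.

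Total counts ran from 15643381 to 20918997 per library. CHAF1A stood at 51.5, 59.8 and 51.0 CPM (counts scaled to library size by the TMM method) in si-Ctrl 1, 2 and 3 and at 11.1, 12.9 and 11.2 CPM in si-CHAF1A 1, 2 and 3. Its level was 21.7% of control by the fitted value (SE 0.10 around a log2 fold change of -2.21, adjusted p = 2.57e-10 by edgeR). The library si-Ctrl 2 lay apart from the other controls, with a score of -29.6 on the second principal component against 14.9 and 13.9, and values without it are given where a call or a named level turned on it. Of the biliary markers, KRT7 and KRT19 were at 883 to 1154 and 657 to 1219 CPM of total counts, EPCAM at 52.9 to 75.2 and SOX9 at 56.5 to 69.6. Of these KRT19 and EPCAM were higher in si-CHAF1A (log2 fold change 0.65 and 0.32) and SOX9 was lower (-0.26). The hepatocyte gene ALB had 24 counts over all 6 libraries, COL3A1 of fibroblasts 17 and CD3E of blood cells 1. APOA1 and TTR of hepatocytes and CD68 of blood cells had at most 3, 1 and 1 counts in a library. PTPRC of blood cells had 50 counts over all 6 libraries, 3 to 12 in each. PECAM1 of endothelium had 35 to 60 counts per library. VWF of endothelium had 6 to 85 counts per library and was higher in si-CHAF1A (log2 fold change 2.54), and COL1A1 had 123 to 393 counts, while CDH5 and DCN had at most 7 and 6. The part of these differences in the results below was not tested.

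Of the 44 repair genes, 17 were lower and 1 was higher in si-CHAF1A cells by edgeR's quasi-likelihood test at an adjusted p under 0.05, and 26 did not pass. Over all 15911 tested genes 19.3% were lower and 18.5% were higher. The median log2 fold change was -0.20 over the 44 genes and 0.00 over all tested genes, and 35 of the 44 lay below 0. The falls were modest, and in GENCODE 29 (GRCh38) 6 of the genes that passed, taken from different roles after their values were seen, lie as follows: BARD1 (ENSG00000138376, chr2:214725646-214809711, minus strand), CHEK2 (ENSG00000183765, chr22:28687743-28742422, minus strand), EXO1 (ENSG00000174371, chr1:241847967-241895148, plus strand), FANCD2 (ENSG00000144554, chr3:10026414-10101930, plus strand), XRCC6 (ENSG00000196419, chr22:41621119-41664048, plus strand) and TP53BP1 (ENSG00000067369, chr15:43403061-43510728, minus strand). Only BARD1 and CHEK2 fell by at least 1.5-fold, as did 5.55% of all tested genes, and 0 of the 44 fell 2-fold. The 3 si-CHAF1A libraries all lay below the 3 si-Ctrl libraries for 22 of the 44 genes (24.1% of all tested genes) and all above for 1 (24.1% of all tested genes as well). Summed over the 44 genes, the level was between 3018 and 3214 CPM in the controls and between 2640 and 2798 CPM in the knockdown. In bulk RNA, fewer cells that carry a transcript and less of it per cell cannot be told apart.

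The count depended on si-Ctrl 2. Without that library 25 genes were lower (22.5% of 16503 tested genes) and 1 was higher. The genes added were ATR, TOPBP1, NBN, RBBP8, BLM, RIF1, BRCA2 and FANCL, and the 17 lower genes were all among the 25. Leaving out any other single library gave 12 to 15 lower genes, while the share over all tested genes lay between 14.3% and 16.7%.

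**Figure D1:**
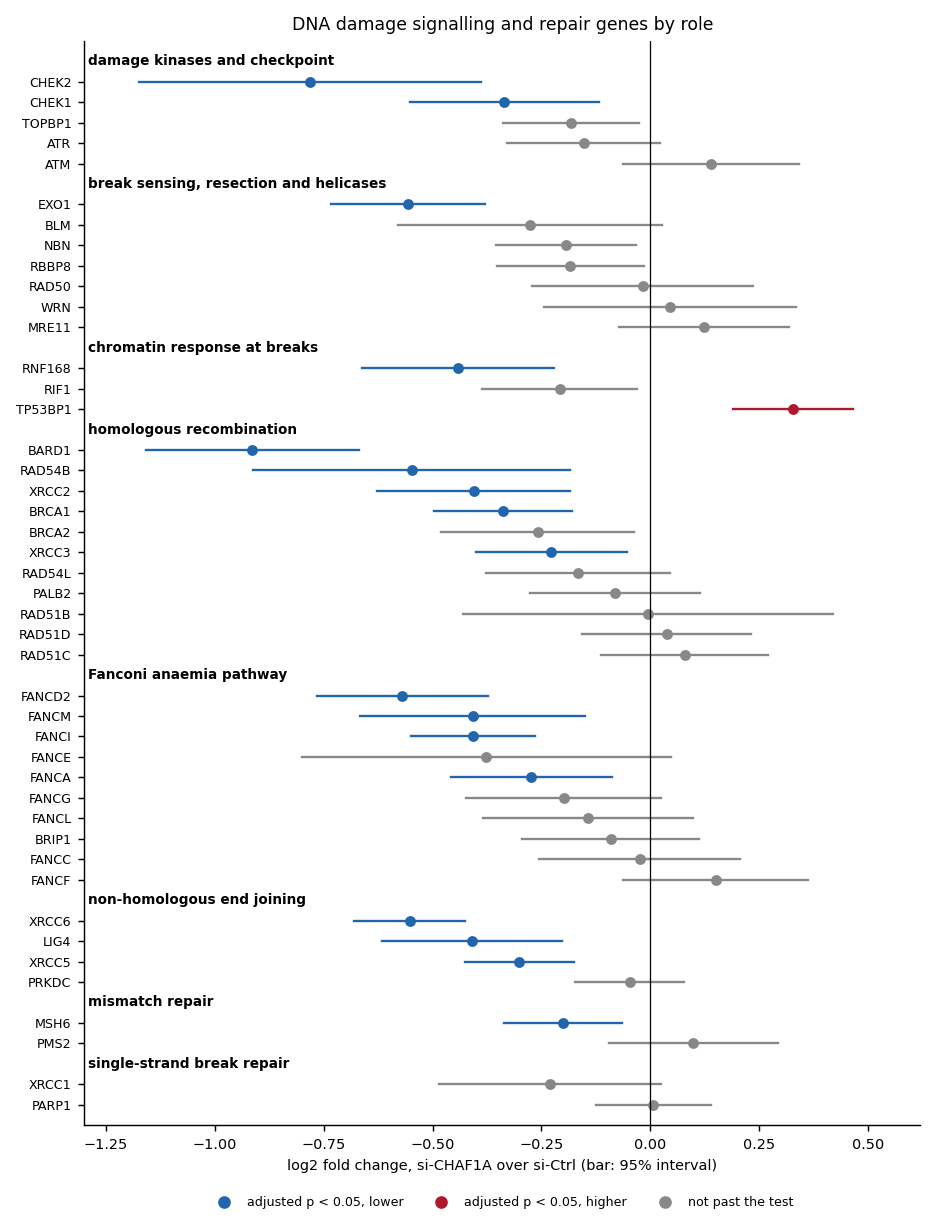
Fitted log2 fold change of each of the 44 repair genes, si-CHAF1A over si-Ctrl, grouped by role, with its 95% interval; blue and red points passed edgeR's test at an adjusted p under 0.05 and grey points did not. The 17 blue points lie between -0.91 (BARD1) and -0.20 (MSH6), and TP53BP1 is the red point at 0.33.

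Promoter sequence was available in a RefSeq table (GRCh38.p14) for 38 of the 44 genes. Stretches of 170 bases, from 150 before to 20 after the annotated start, are shown for BARD1, which fell furthest, for EXO1 and XRCC6, which fell, for TOPBP1, which did not pass, and for TP53BP1, which rose. They lie at chr2:214809664-214809833 on the minus strand (BARD1), chr1:241848054-241848223 on the plus strand (EXO1), chr22:41621145-41621314 on the plus strand (XRCC6), chr3:133661922-133662091 on the minus strand (TOPBP1) and chr15:43510621-43510790 on the minus strand (TP53BP1). Capitals mark words searched on both strands: TTTCGCGC or TTTGGCGC, forms of the site read by E2F factors of the cell cycle, TTTGAA, the CHR element of mitotic genes, CCAAT, the CCAAT box, and GCATGCGC, the core of the NRF1 site, a factor of nuclear genes for respiration. The 5 promoters and their window were chosen after the values were seen. EXO1 has 2 annotated starts, and the one shown was taken because its window holds an E2F word. The window of its other start holds none of the words.
BARD1: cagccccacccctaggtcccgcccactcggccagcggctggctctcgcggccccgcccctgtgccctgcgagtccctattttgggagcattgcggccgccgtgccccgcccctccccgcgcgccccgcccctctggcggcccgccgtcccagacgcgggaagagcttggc
EXO1: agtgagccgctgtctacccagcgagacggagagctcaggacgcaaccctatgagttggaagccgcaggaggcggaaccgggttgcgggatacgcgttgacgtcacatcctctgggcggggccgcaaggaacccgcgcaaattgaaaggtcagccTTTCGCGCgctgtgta
XRCC6: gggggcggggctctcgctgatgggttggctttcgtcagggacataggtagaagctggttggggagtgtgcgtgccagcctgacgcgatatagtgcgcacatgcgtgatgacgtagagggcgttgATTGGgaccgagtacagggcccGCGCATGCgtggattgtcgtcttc
TOPBP1: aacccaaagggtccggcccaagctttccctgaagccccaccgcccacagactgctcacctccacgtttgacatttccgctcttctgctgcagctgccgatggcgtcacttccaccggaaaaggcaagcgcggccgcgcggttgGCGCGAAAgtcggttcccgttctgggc
TP53BP1: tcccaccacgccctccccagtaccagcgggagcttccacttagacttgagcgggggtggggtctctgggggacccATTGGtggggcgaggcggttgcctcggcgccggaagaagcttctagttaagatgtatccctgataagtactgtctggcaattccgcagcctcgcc

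The stretch of BARD1 holds none of these words. EXO1 has an E2F word that begins 5 bases into the transcript, and TOPBP1 has one on the opposite strand that begins 7 bases before the start. XRCC6 has a CCAAT box 26 bases and an NRF1 core 4 bases before its start, and TP53BP1 has a CCAAT box 75 bases before it. The E2F word of XRCC6 begins 43 bases into the transcript, beyond the stretch shown. In the full windows of 300 bases, an E2F word was present in 4 of 38 genes (10.5%), against 2.34% of the 11286 tested genes with a promoter in the table and 1.40% of all 27305 genes in it. The 4 were EXO1 and XRCC6, which fell, and TOPBP1 and FANCC, which did not pass. The CHR word was in 5 of the 38 (13.2%, against 13.7% of tested genes and 18.2% of all), namely RIF1, FANCC, ATM, BRIP1 and XRCC1, and in 0 of the 14 lower genes with a promoter. CCAAT was in 20 of the 38 (52.6%, against 42.7% of tested genes and 39.7% of all), among them 9 of the 14 lower genes. The result for NRF1 depended on the length of the word. The full palindromic site of 10 bases, the form first searched, was in 1 of the 38 (2.63%, against 2.58% of tested genes and 1.52% of all) and in 0 of the 14 lower genes. Its 8-base core was added after that result had been seen. The core was in 4 of the 38 (10.5%, against 6.16% of tested genes and 3.68% of all): XRCC2, LIG4 and XRCC6, which fell, and RBBP8, which did not pass. A gene counts if any of its windows holds a word, so genes with several annotated starts have more chances. These matches are descriptions of the letters in the windows and were not tested.

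The counts by role from here on stand beside 19.3% lower and 18.5% higher over all tested genes. The roles hold few genes, and their counts were not tested against these shares. Of the 5 damage kinases and checkpoint genes, both effector kinases fell, while the 2 apical kinases and TOPBP1 did not pass. CHEK2, the effector kinase downstream of ATM, was at 7.04, 5.51 and 6.71 CPM in si-Ctrl 1, 2 and 3 and at 3.51, 3.04 and 4.6 CPM in si-CHAF1A 1, 2 and 3. Every knockdown library lay below every control. It fell 1.72-fold (SE 0.18 around a log2 fold change of -0.78, adjusted p = 0.00351 by edgeR), on 53 to 117 counts per library, and its reads may be shared with near-identical copies elsewhere in the genome. CHEK1, the effector kinase downstream of ATR that restrains origin firing and entry into mitosis during replication trouble, was at 25.1, 23.5 and 26.1 CPM in the controls and at 20.03, 17.2 and 21.9 CPM in the knockdown. The groups did not overlap, and CHEK1 fell by 0.33 on the log2 scale (SE 0.10, edgeR adjusted p = 0.017). It did not pass without si-Ctrl 3 (edgeR adjusted p = 0.0623) or without si-CHAF1A 2 (edgeR adjusted p = 0.102).

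ATM, the kinase switched on by double-strand breaks, was at 51.3, 40.0 and 50.8 CPM in the controls and 48.5, 54.0 and 53.6 CPM in the knockdown, and the groups overlapped (log2 fold change 0.14, 95% interval -0.06 to 0.34). Without si-Ctrl 2, its lowest control, ATM was at 0.02. ATR, the kinase that responds to single-stranded DNA at stalled forks, was at a log2 fold change of -0.15 (95% interval -0.33 to 0.02), and its activator TOPBP1 at -0.18 (-0.34 to -0.03). Without si-Ctrl 2, ATR was at -0.24 (edgeR adjusted p = 0.00102) and TOPBP1 at -0.23 (edgeR adjusted p = 0.000869).

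Among the 7 genes of break sensing, end resection and unwinding, EXO1 fell and 6 did not pass. EXO1, the exonuclease that carries out long-range resection and also acts in mismatch repair, was at 37.5, 36.1 and 37.9 CPM in si-Ctrl 1, 2 and 3 and at 23.8, 25.7 and 26.3 CPM in si-CHAF1A 1, 2 and 3. The groups were far apart relative to their spread, and EXO1 fell 1.47-fold (SE 0.08 around a log2 fold change of -0.56, adjusted p = 7.54e-05 by edgeR). RBBP8, which encodes the resection starter CtIP, was at 46.2, 43.8 and 45.4 CPM in the controls and 36.6, 40.9 and 41.7 CPM in the knockdown. The groups did not overlap, yet the difference did not pass (log2 fold change -0.18, edgeR adjusted p = 0.0802). Without si-Ctrl 2 it was at -0.21 (edgeR adjusted p = 0.0151).

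The MRN complex, which binds broken ends, is made of MRE11, RAD50 and NBN. NBN was at 102, 86.6 and 104 CPM in the controls and at 83.9, 85.3 and 85.7 CPM in the knockdown, with si-Ctrl 2 only just above the knockdown libraries. Its log2 fold change was -0.19 (95% interval -0.35 to -0.03, edgeR adjusted p = 0.0539), and -0.28 without si-Ctrl 2 (edgeR adjusted p = 1.36e-05). The nuclease MRE11 was at 0.12 (-0.07 to 0.32), or 0.04 without si-Ctrl 2, and the ATPase RAD50 at -0.02 (-0.27 to 0.24). RAD50 had only 165 to 239 counts per library, and 79.7% of its annotated exon bases are shared with another gene on the same strand, so its level is uncertain. Of the helicases, BLM was at -0.28 (-0.58 to 0.03) and WRN at 0.04 (-0.24 to 0.33). Both varied between replicates, BLM from 8.98 to 12.8 CPM and WRN from 18.0 to 24.0 CPM in the knockdown. BLM passed without si-Ctrl 2 (-0.37, edgeR adjusted p = 0.0228) and without si-CHAF1A 2 (-0.44, edgeR adjusted p = 0.0355).

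The 3 genes of the chromatin response at breaks went in different directions. TP53BP1, which encodes 53BP1, the reader of modified nucleosomes that shields ends from resection, was at 69.3, 71.3 and 69.8 CPM in si-Ctrl 1, 2 and 3 and at 88.0, 90.6 and 85.5 CPM in si-CHAF1A 1, 2 and 3. It was the only one of the 44 genes to pass the test as higher, with a 1.25-fold rise (SE 0.07 around a log2 fold change of 0.33, adjusted p = 0.00094 by edgeR). Its log2 fold change stayed between 0.31 and 0.35 whichever library was left out. Of the annotated exon bases of TP53BP1 28.7% face exons of genes on the opposite strand. RNF168, the ubiquitin ligase that writes the mark 53BP1 reads, was at 30.4, 30.5 and 34.3 CPM in the controls and 20.7, 22.4 and 26.9 CPM in the knockdown. It fell 1.36-fold (SE 0.10 around a log2 fold change of -0.44, adjusted p = 0.00338 by edgeR). RIF1, the effector that acts with 53BP1, was at 164, 138 and 168 CPM against 122, 141 and 144 CPM. The groups overlapped through si-Ctrl 2, and RIF1 was at -0.21 (edgeR adjusted p = 0.0612) with all libraries and at -0.30 without si-Ctrl 2 (edgeR adjusted p = 9.42e-06). RIF1 also passed with all libraries and no filter on low counts (-0.22, edgeR adjusted p = 0.0248).

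Of 11 homologous recombination genes, 5 fell and 6 did not pass. BARD1, the partner with which BRCA1 forms a ubiquitin ligase, was at 36.3, 26.3 and 32.5 CPM in si-Ctrl 1, 2 and 3 and at 15.7, 17.9 and 16.8 CPM in si-CHAF1A 1, 2 and 3. Even the lowest control lay well above the highest knockdown library. BARD1 fell 1.88-fold (SE 0.12 around a log2 fold change of -0.91, adjusted p = 1.56e-05 by edgeR), which placed it at rank 372 among the falls of all 15911 tested genes. BRCA1 was at 52.9, 49.7 and 50.9 CPM in the controls and 39.8, 39.3 and 42.4 CPM in the knockdown. It fell 1.26-fold (SE 0.07 around a log2 fold change of -0.34, adjusted p = 0.00214 by edgeR).

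BRCA2, which loads the strand exchange filament, was at 46.8, 40.1 and 47.1 CPM in the controls and 31.5, 37.7 and 42.6 CPM in the knockdown. The groups overlapped and BRCA2 did not pass (log2 fold change -0.26, edgeR adjusted p = 0.0625), but it did without si-Ctrl 2 (-0.34, edgeR adjusted p = 0.00233), without si-CHAF1A 3 (-0.37, edgeR adjusted p = 0.0266) and without a filter on low counts (-0.27, edgeR adjusted p = 0.0184). PALB2, the bridge between BRCA1 and BRCA2, was at -0.08 (95% interval -0.28 to 0.11).

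The paralogues that assist filament formation were split. XRCC2 was at 34.3, 31.3 and 32.1 CPM in the controls and 21.2, 28.5 and 24.0 CPM in the knockdown. It fell 1.32-fold (SE 0.10 around a log2 fold change of -0.41, adjusted p = 0.00613 by edgeR). XRCC3 fell by 0.23 on the log2 scale, from 31.4 ± 0.992 to 26.8 ± 0.279 CPM (SD, n = 3 each; edgeR adjusted p = 0.0385). This call was lost when any library other than si-Ctrl 2 was left out, with DESeq2 and without a filter on low counts, and 76.7% of its annotated exon bases face exons of genes on the opposite strand. RAD51C, RAD51D and RAD51B were at 0.08 (95% interval -0.11 to 0.27), 0.04 (-0.16 to 0.23) and -0.01 (-0.43 to 0.42). RAD51B had 61 to 96 counts per library, too few to bound a change tightly.

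RAD54B, a motor protein that helps strand exchange, was at 8.06, 5.36 and 7.17 CPM in the controls and 4.64, 4.88 and 4.49 CPM in the knockdown. It fell 1.46-fold (SE 0.17 around a log2 fold change of -0.55, adjusted p = 0.0192 by edgeR), a call that rested on few counts (78 to 126) and was lost when si-Ctrl 1, si-Ctrl 3, si-CHAF1A 1 or si-CHAF1A 3 was left out (edgeR adjusted p from 0.0575 to 0.0991) and with DESeq2 (adjusted p = 0.0563). Of its annotated exon bases 59.1% are shared with another gene on the same strand. RAD54L, its paralogue, was at -0.17 (95% interval -0.38 to 0.04).

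Of 10 Fanconi anaemia genes, 4 fell and 6 did not pass, and 9 of the 10 lay below 0. Over all tested genes 19.3% were lower and the median log2 fold change was 0.00. The pathway turns on the FANCD2 and FANCI pair, which a core complex marks with ubiquitin at crosslinked DNA. FANCD2 was at 34.3, 29.8 and 30.05 CPM in si-Ctrl 1, 2 and 3 and at 20.7, 20.3 and 22.3 CPM in si-CHAF1A 1, 2 and 3. It fell 1.48-fold (SE 0.09 around a log2 fold change of -0.57, adjusted p = 0.000167 by edgeR). FANCI was at 80.7, 76.7 and 82.8 CPM in the controls and 59.8, 60.8 and 60.4 CPM in the knockdown. It fell 1.33-fold (SE 0.07 around a log2 fold change of -0.41, adjusted p = 0.000194 by edgeR), and in both genes the groups were well apart.

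In the core complex and its anchor, FANCM and FANCA fell. FANCM, the translocase that anchors the complex on DNA, was at 23.8, 16.7 and 21.9 CPM in the controls and 15.1, 15.9 and 15.8 CPM in the knockdown. Only si-Ctrl 2 came near the knockdown libraries, and FANCM fell by 0.41 on the log2 scale (edgeR adjusted p = 0.015), a call lost when si-Ctrl 1, si-Ctrl 3 or si-CHAF1A 1 was omitted (edgeR adjusted p from 0.0521 to 0.0774). FANCA fell by 0.27 from 25.6 ± 0.670 to 21.2 ± 0.687 CPM (SD, n = 3 each; edgeR adjusted p = 0.021), a call lost without si-Ctrl 1, si-CHAF1A 1 or si-CHAF1A 3 and with DESeq2 (adjusted p from 0.0528 to 0.0801). Of the annotated exon bases of FANCA 23.6% face exons of genes on the opposite strand. The ubiquitin ligase subunit FANCL was at -0.14 with all libraries and at -0.30 without si-Ctrl 2 (edgeR adjusted p = 0.00105).

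FANCG was at -0.20 (95% interval -0.42 to 0.03) and FANCE at -0.38 (-0.80 to 0.05). FANCE passed without si-Ctrl 3 (-0.59, edgeR adjusted p = 0.0211), the control library in which it was lowest, and was at -0.16 without si-Ctrl 2 (edgeR adjusted p = 0.555), the control in which it was highest. FANCC was at -0.02 (-0.25 to 0.21), FANCF at 0.15 (-0.06 to 0.36) and the helicase BRIP1, a partner of BRCA1, at -0.09 (-0.29 to 0.11). Of these 3 intervals, those of FANCC and BRIP1 reach below 0 nearly as far as the fitted value of FANCA or further, and that of FANCF does not.

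Of the 4 genes of non-homologous end joining, 3 fell. The ring that slides onto broken ends is the Ku heterodimer of XRCC6 (Ku70) and XRCC5 (Ku80), and these were the most abundant transcripts of the 44 per transcript length in control cells, at 115 and 119 CPM per kb. XRCC6 was at 317, 310 and 305 CPM in si-Ctrl 1, 2 and 3 and at 205, 218 and 213 CPM in si-CHAF1A 1, 2 and 3. The groups lay far apart, and XRCC6 fell 1.47-fold (SE 0.06 around a log2 fold change of -0.55, adjusted p = 3.36e-06 by edgeR). XRCC5 was at 455, 431 and 461 CPM in the controls and 358, 362 and 372 CPM in the knockdown. It fell 1.23-fold (SE 0.06 around a log2 fold change of -0.30, adjusted p = 0.000812 by edgeR).

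LIG4, the ligase that seals the ends, was at 68.1, 50.7 and 65.6 CPM in the controls and 45.5, 47.9 and 45.3 CPM in the knockdown. It fell 1.33-fold (SE 0.10 around a log2 fold change of -0.41, adjusted p = 0.00364 by edgeR), and si-Ctrl 2 was again the control nearest to the knockdown. PRKDC, the kinase that Ku recruits, was at 618, 606 and 591 CPM against 560, 604 and 593 CPM. The groups overlapped, and with 9416 to 11994 counts per library the 95% interval of its log2 fold change was narrow (-0.05, from -0.17 to 0.08).

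Of the mismatch repair genes, MSH6, which recognises single mispaired bases, fell by 0.20 on the log2 scale, from 102.5 ± 2.101 to 89.2 ± 1.897 CPM (SD, n = 3 each; edgeR adjusted p = 0.0205). The groups did not overlap. This call was lost without si-Ctrl 3 or any 1 of the si-CHAF1A libraries (edgeR adjusted p from 0.0526 to 0.0899). PMS2, a subunit of the endonuclease that follows, was at 0.10 (95% interval -0.09 to 0.29) and has near-identical copies that may share its reads. Of the 2 single-strand break genes, PARP1, which marks nicks with poly(ADP-ribose), was at 204, 218 and 199 CPM in the controls and 213, 207 and 205 CPM in the knockdown. These ranges overlapped fully (log2 fold change 0.01, 95% interval -0.13 to 0.14). The scaffold XRCC1 was at -0.23 (-0.48 to 0.02), with si-Ctrl 2 the highest library at 19.2 CPM, and at -0.12 without it.

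**Figure D2:**
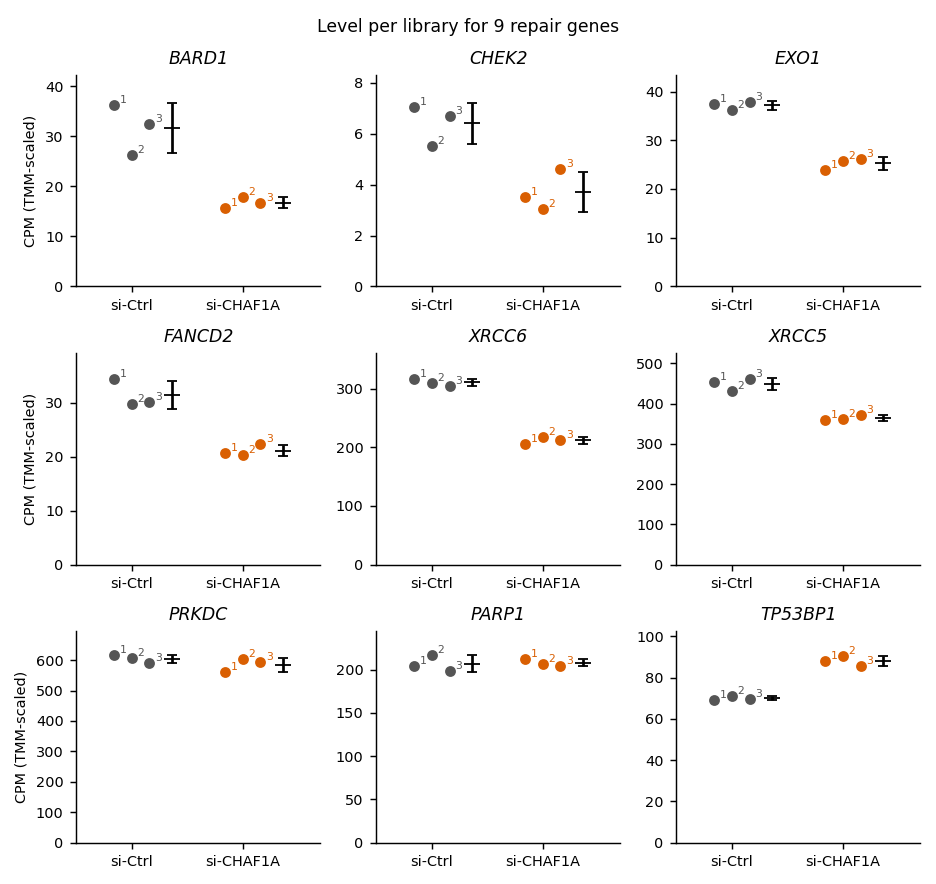
Level in each library (CPM scaled by TMM, axes from 0) of 9 repair genes chosen after their values were seen; numbered points are libraries 1 to 3 of si-Ctrl (grey) and si-CHAF1A (orange), and black marks give mean and SD. BARD1, CHEK2, EXO1, FANCD2, XRCC6 and XRCC5 are lower in every knockdown library, PRKDC and PARP1 overlap, and TP53BP1 is higher.

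Levels in control cells, per kb of the transcript with the longest coding part, ran from 1.32 CPM per kb for RAD50 to 119 for XRCC5. After the Ku genes came PARP1 at 52.3 and PRKDC at 44.8 CPM per kb, and the other 40 genes lay at or below 21.1 (FANCL). CHEK2 (3.26), FANCM (2.92), RAD54B (2.24) and BLM (2.43) were among the lowest. The levels of RAD50 and RAD54B are uncertain, since 79.7% and 59.1% of their annotated exon bases are shared with another gene on the same strand. Lower genes were found at both ends of this range.

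Partners that work in 1 complex or 1 signalling step were compared through the log2 ratio of their CPM within each library. This ratio depends on how libraries are scaled only through the prior count of 2 added to each gene, which weighs most where counts are low. In 5 of 12 pairs the ratios of the groups did not overlap. For the levels of single genes, 24.1% of all tested genes lay wholly lower and 24.1% wholly higher. The share for ratios of other gene pairs was not computed, so 5 of 12 is only a description. With 3 libraries against 3 the exact permutation test (2-sided) cannot go below p = 0.1, which these 5 pairs reached, and adjusted over the 12 pairs it was 0.24, so none of them passes a threshold of 0.05. ATM/CHEK2 went from 2.86 ± 0.0344 to 3.79 ± 0.296 (SD, n = 3 each), a shift of 0.93 toward ATM. BRCA1/BARD1 went from 0.70 ± 0.195 to 1.27 ± 0.116, a shift of 0.57 toward BRCA1, with each knockdown library above every control. Both subunits fell, and BARD1 had the larger fitted fall. RAD51D/XRCC2, neighbours in the BCDX2 complex, shifted by 0.46, and RAD51C/XRCC3, which form the other paralogue complex, by 0.30.

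XRCC5/XRCC6 was at 0.52, 0.47 and 0.60 in the controls and 0.81, 0.73 and 0.81 in the knockdown, a shift of 0.25. In these 6 libraries the ratio of the Ku subunits moved toward Ku80 by more than its SD within either group, without passing the permutation test. FANCD2/FANCI shifted by -0.16, FANCA/FANCG by -0.07, BRCA2/PALB2 by -0.18, ATR/CHEK1 by 0.19 and PARP1/XRCC1 by 0.23, and in each of these the groups overlapped. The ratios with RAD50 moved by 0.14 (MRE11) and -0.18 (NBN), within a control SD of 0.266 and 0.263.

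**Figure D3:**
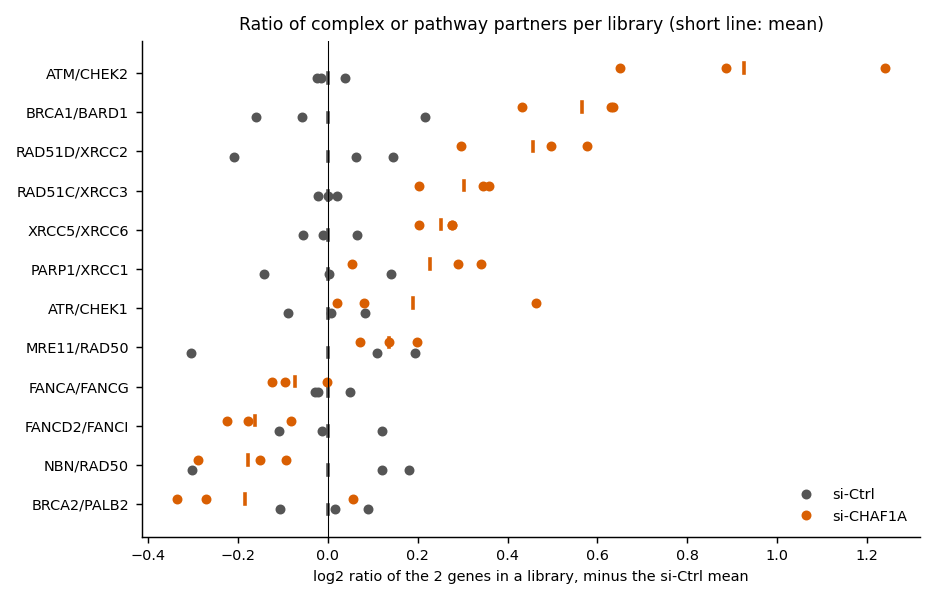
Log2 ratio of 2 partner genes in each library minus the mean of the si-Ctrl libraries, for 12 pairs; points are libraries (grey si-Ctrl, orange si-CHAF1A) and short lines are means. In the upper 5 pairs, from ATM/CHEK2 with a shift of 0.93 to XRCC5/XRCC6 with 0.25, the groups do not overlap.

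Many repair genes share a start region with a gene on the opposite strand. In GENCODE 29, 23 of the 44 had such a head-to-head neighbour with a start within 1000 bases, 24 neighbours in all, of which 14 were tested. Of the 7 lower repair genes in these pairs, 0 had a neighbour that was lower and 1 had one that was higher, counts too small to set apart from the 19.3% and 18.5% over all tested genes. XRCC6 and DESI1, whose starts are 23 bases apart, were at -0.55 and 0.14 on the log2 scale, LIG4 and ABHD13 (11 bases) at -0.41 and 0.12, and BRCA1 and NBR1 (236 bases between the outermost starts) at -0.34 and 0.13. DESI1, ABHD13 and NBR1 did not pass the test. BRCA1 has another annotated start, with its promoter window at chr17:43125315-43125614, far from the start of NBR1. Which start BRCA1 uses in these cells was not tested, so BRCA1 and NBR1 need not share a start region.

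CHEK2 and HSCB were at -0.78 and -0.0019, FANCM and FKBP3 at -0.41 and -0.05, and BARD1 and the non-coding SNHG31, which had about 1.05 CPM, at -0.91 and 0.23. XRCC3 fell by 0.23 where ZFYVE21 rose 1.59-fold, from 38.9 ± 2.85 to 61.9 ± 3.89 CPM (SD, n = 3 each; edgeR adjusted p = 1.07e-05). In the other direction, PRKDC did not pass while MCM4, a replicative helicase subunit whose start is 2 bases away, fell by 0.30. ATM was at 0.14 while NPAT, an activator of histone genes, fell by 0.40 (edgeR adjusted p = 0.0097). DCTN5 beside PALB2 rose by 0.22. The difference between the members of a pair was not tested, and reads of overlapping opposite-strand exons may be misassigned if the counting ignored strand.

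**Figure D4:**
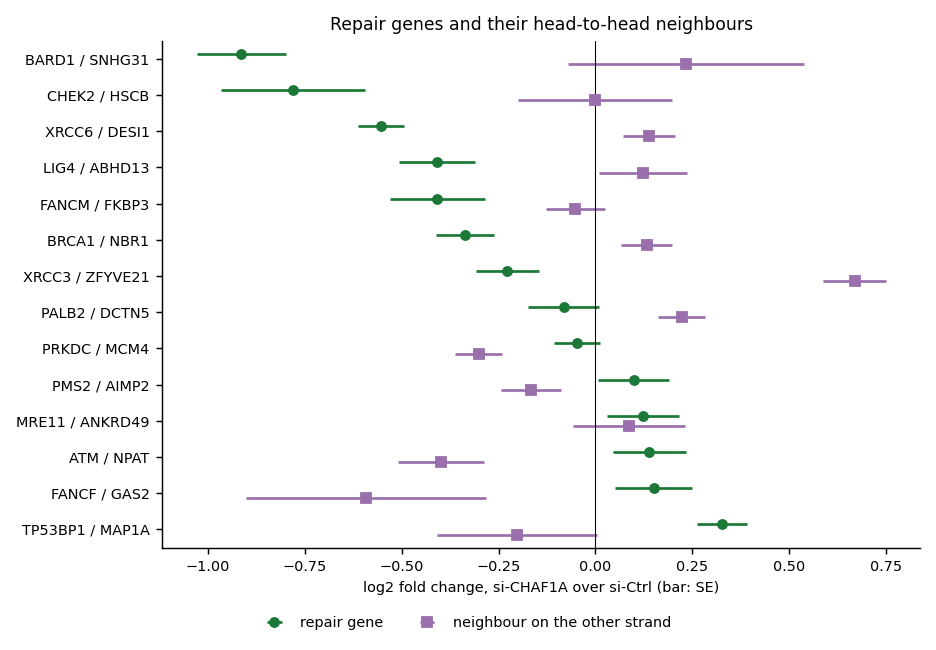
Fitted log2 fold change (si-CHAF1A over si-Ctrl, bar: SE) of 14 repair genes and of the gene that starts within 1000 bases on the opposite strand. From BARD1 to XRCC3 the 7 lower repair genes lie left of their neighbours, among which ZFYVE21 at 0.67 passed the test. These 7 were picked by their own fall and the neighbours were not, so this order is largely set by the choice.

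The rest of the repair network was listed as 132 further genes in 8 groups, of which 128 were tested. Of these 41 were lower and 13 higher, with a median log2 fold change of -0.14, beside 19.3% lower and 18.5% higher over all tested genes. The group counts that follow were not tested against those shares. In the Fanconi group 5 of 10 were lower and 0 higher (median -0.30), led by UBE2T, the ubiquitin-conjugating enzyme that acts on FANCD2 and FANCI, which went from 39.7 ± 0.811 to 19.99 ± 1.52 CPM (SD, n = 3 each), a 1.98-fold fall (adjusted p = 4.01e-07 by edgeR). CENPX, a cofactor of FANCM, and the ligase RFWD3 fell by 0.45 and 0.33 on the log2 scale. USP1, which removes the FANCD2 ubiquitin mark but is counted with the further checkpoint and signalling genes, fell by 0.63.

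Among the further checkpoint and signalling genes 8 of 22 were lower and 2 higher (median -0.14). TIMELESS of the fork protection complex fell by 0.60. UIMC1, of the complex that takes BRCA1 to ubiquitin marks at breaks, rose by 0.52. Its partners, chosen after their values were seen, differed: ABRAXAS1 rose by 0.53, BABAM2 fell by 0.23, and BABAM1 and BRCC3 were at 0.13 and -0.12 without passing. Of 26 tested recombination genes 11 were lower and 0 higher (median -0.18), among them MCM8 and MCM9, which form a helicase of recombination, by 0.79 and 0.63, and the resection nuclease DNA2 by 0.72. In end joining 5 of 15 were lower and 2 higher (median -0.17). TDP2, which frees ends blocked by topoisomerase II, went from 34.5 ± 0.854 to 16.2 ± 1.22 CPM (SD, n = 3 each), a 2.13-fold fall (adjusted p = 1.99e-07 by edgeR), and PAXX, a factor that binds Ku, fell by 0.48. Of 3 further mismatch repair genes PMS1 fell by 0.40, and MSH3 and MLH3 were at -0.13 and -0.03.

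Genes of DNA replication and mitosis were also counted, beside 19.3% lower and 18.5% higher over all tested genes. Of 36 replication genes 23 were lower and 0 higher, with a median of -0.30, and RRM1, POLA1 and MCM6 fell by 0.72, 0.84 and 0.56. Of 31 tested mitosis genes all 31 were lower, with a median of -0.94, and their summed level went from between 3993 and 4228 CPM to between 2040 and 2223 CPM. Their part in the values of the repair genes was not tested.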

How the data were processed

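Gene-level RNA-seq was analysed in 3 si-Ctrl and 3 si-CHAF1A libraries of RBE cells (reads of 150 bp). The authors deposited 1 table of raw counts, whole numbers per Ensembl gene without normalisation. The submitters' processing notes name fastp 0.20.1, HISAT2 2.1.0, SAMtools 1.9, featureCounts 2.0.1, StringTie 2.1.4 and hg38. The design text names strand-specific libraries. The role of each tool, the annotation release and the settings for strand and multi-mapped reads in the counting were not stated, so genes with overlaps or copies are uncertain. Columns named NC and si were read as si-Ctrl and si-CHAF1A with the same number, and there were 0 columns of other samples. Within groups, no pair was a duplicate (chi-square per degree of freedom 2.30 to 13.7).

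Genes were filtered with filterByExpr (minimum count 10, total 15; 15911 kept), scaled by TMM and tested with edgeR 4.0.16 (robust quasi-likelihood, Benjamini-Hochberg adjustment over all 15911, threshold 0.05) in R 4.3.3. The procedure was tested on simulated data. SE is the log2 fold change divided by the square root of F. Symbols came from a gene name table, exon overlaps and neighbours from GENCODE 29, promoters from RefSeq. Ratios used log2 CPM with a prior count of 2. Alternatives were RLE factors, DESeq2 1.42.0, no filter, a replicate block and leaving out each library. The members and lists were chosen with earlier results of these data known. The NRF1 site was first searched as a word of 10 bases; its 8-base core was added after that result was seen, and both counts are given. The promoters printed, their window and the genes of the plot of levels by library were also chosen after values were seen. The text names CHAF1A, all 44 members, up to 3 genes per further list with the smallest adjusted p, and head-to-head neighbours. A gene that this rule names is not reported here.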

Additional observations from a re-analysis of the deposited data

How the results depend on the processing

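The median of the 44 genes lay between -0.23 and -0.17 on the log2 scale when 1 library was left out, the lower genes numbered 12 to 25 and the higher ones 1. With RLE factors, DESeq2, no filter and the replicate block, 17, 14, 18 and 15 genes were lower and 1 higher, beside 19.1%, 15.0%, 8.77% and 17.1% lower over all genes with an adjusted p (35659 of them without the filter). Same-numbered libraries showed no clear shared shift: correlations of same-numbered deviations were -0.248, -0.156 and 0.0892, and only number 3 correlated best with its own. This check cannot show whether the samples were made in pairs. Under the block, XRCC3 and MSH6 did not pass (edgeR adjusted p = 0.0857 and 0.0604). Of the 17 lower genes 11 kept their call under all 10 alternatives, as did TP53BP1, and 6 lost it in at least 1 (CHEK1, XRCC3, RAD54B, FANCA, FANCM, MSH6). Of the 26 others 9 passed in at least 1. CHAF1A stayed between -2.28 and -2.13 without any 1 library. The sign changed in 6 genes near 0. PARP1 was at -0.0016 with DESeq2, -0.0024 without a filter and between -0.0266 and 0.0384 without 1 library. On that last measure RAD50 ran from -0.0779 to 0.0532, WRN from -0.10 to 0.18, RAD51B from -0.11 to 0.17, RAD51D from -0.0281 to 0.10 and FANCC from -0.12 to 0.0895. The cause was not tested. Depth limited CHEK2, RAD51B, RAD54B and FANCE, with at most 117, 96, 126 and 168 counts in a library.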

Other observations

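The counts of other repair routes stand beside 19.3% lower and 18.5% higher over all tested genes. They were not tested against these shares. Of 19 tested genes of nucleotide excision repair, which cuts out bulky lesions, 5 were higher and 2 lower (median log2 fold change -0.08). XPC, which recognises such lesions, rose 1.75-fold from 18.3 ± 1.66 to 32.04 ± 3.46 CPM (SD, n = 3 each; edgeR adjusted p = 1.9e-05). DDB2, which finds ultraviolet photoproducts, rose by 0.49 and UVSSA, which acts at stalled RNA polymerase, by 0.40 on the log2 scale. In base excision and single-strand break repair 5 of 18 were lower and 0 higher (median -0.10). The glycosylases NEIL3 and NTHL1 fell by 0.80 and 0.69 and the flap nuclease FEN1 by 0.35. Among 15 genes of translesion synthesis and direct reversal 4 were lower and 4 higher. ALKBH3, which removes methyl groups from DNA, went from 22.3 ± 0.233 to 11.999 ± 0.665 CPM (SD, n = 3 each), a 1.86-fold fall (adjusted p = 3.36e-06 by edgeR), RAD18, which ubiquitinates PCNA, fell by 0.67 and the primase PRIMPOL by 0.88.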
